A study of Mus musculus with 12 samples.

Results

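The genes described are 46 that copy DNA or prepare the cell for S phase, the stretch of the cell cycle in which the genome is duplicated. They were taken by symbol from the deposited table of 45777 mouse genes. All 46 were found, and all 46 were among the 15932 genes with enough counts to be tested. RNA was sequenced from mpkCCDc11 cells, an established line from the cortical collecting duct of the mouse kidney, a tubule segment in which vasopressin sets water reabsorption. There were 4 groups of 3 libraries each. Wild-type cells with a control siRNA, and cells with an siRNA against TAZ (a knockdown of the Hippo coactivator encoded by Wwtr1), received either vehicle or 1e-09 M dDAVP, a vasopressin analogue, from the basolateral side. Every group had spent 3 days on permeable filters and then 24 h without serum and hormones, which withdraws the growth factors of the culture medium. Several dDAVP exposure times are listed for the series, and which of them applies to these libraries is not stated. All libraries come from 1 cell line, and nothing says that the libraries of a group are separate cultures, so each p-value rests on how these libraries vary, and that variation may be technical only.

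Replication begins at origins that are licensed in G1. There the origin recognition complex, with CDC6 and CDT1, loads rings of MCM2 to MCM7, which are the core of the replicative helicase. CDC45 and the GINS complex join the ring to activate it, polymerase alpha and primase lay down primers, the RFC complex loads the PCNA clamp, and polymerases delta and epsilon extend the strands while RPA covers single-stranded DNA. Most of these genes are targets of E2F factors, which cyclin E and its kinase release from the retinoblastoma protein, and serum withdrawal is a common way to slow entry into S phase in cultured epithelia.

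The promoters of the MCM ring genes are shown first, because 4 of the 6 fell with the TAZ siRNA in vehicle and because E2F sites are known in this family. RefSeq promoter windows of 300 bases (250 before the start site and 50 after it, GRCm38.p6) were matched for 38 of the 46 genes. The ring gene Mcm4 was among those without a window. Each line runs 5′ to 3′ on the gene's strand, and capitals mark any of 4 E2F words, TTTGGCGC, TTTCCCGC, TTTCGCGC and TTTGCCGC, read on either strand. The windows are those of Mcm2 (chr6:88898731-88899030, minus strand), Mcm3 (chr1:20820263-20820562, minus strand), Mcm5 (chr8:75109259-75109558, plus strand), Mcm6 (chr1:128359656-128359955, minus strand) and the upstream one of the pair listed for Mcm7 (chr5:138171834-138172133, minus strand).
Mcm2: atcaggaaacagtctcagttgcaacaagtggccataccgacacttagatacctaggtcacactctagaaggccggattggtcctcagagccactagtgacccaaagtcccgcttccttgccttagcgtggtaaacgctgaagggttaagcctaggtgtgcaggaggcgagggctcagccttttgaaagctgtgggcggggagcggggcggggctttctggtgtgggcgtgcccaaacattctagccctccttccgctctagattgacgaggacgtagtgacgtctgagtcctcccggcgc
Mcm3: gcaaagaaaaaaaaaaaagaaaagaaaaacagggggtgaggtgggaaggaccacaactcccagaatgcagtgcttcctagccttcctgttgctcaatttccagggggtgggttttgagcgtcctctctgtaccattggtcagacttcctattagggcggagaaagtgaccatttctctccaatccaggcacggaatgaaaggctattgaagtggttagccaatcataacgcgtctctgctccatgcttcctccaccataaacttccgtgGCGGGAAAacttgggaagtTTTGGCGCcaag
Mcm5: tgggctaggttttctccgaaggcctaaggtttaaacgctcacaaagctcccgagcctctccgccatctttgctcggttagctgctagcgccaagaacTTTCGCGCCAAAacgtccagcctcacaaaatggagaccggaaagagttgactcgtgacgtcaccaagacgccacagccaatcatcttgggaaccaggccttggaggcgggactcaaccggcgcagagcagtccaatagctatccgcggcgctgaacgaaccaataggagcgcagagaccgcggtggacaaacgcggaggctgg
Mcm6: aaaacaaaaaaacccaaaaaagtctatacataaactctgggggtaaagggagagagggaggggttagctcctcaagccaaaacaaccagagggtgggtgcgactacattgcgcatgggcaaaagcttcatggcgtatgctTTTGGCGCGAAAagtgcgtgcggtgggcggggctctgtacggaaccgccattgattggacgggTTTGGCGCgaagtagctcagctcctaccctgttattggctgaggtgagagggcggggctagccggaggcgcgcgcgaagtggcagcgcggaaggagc
Mcm7: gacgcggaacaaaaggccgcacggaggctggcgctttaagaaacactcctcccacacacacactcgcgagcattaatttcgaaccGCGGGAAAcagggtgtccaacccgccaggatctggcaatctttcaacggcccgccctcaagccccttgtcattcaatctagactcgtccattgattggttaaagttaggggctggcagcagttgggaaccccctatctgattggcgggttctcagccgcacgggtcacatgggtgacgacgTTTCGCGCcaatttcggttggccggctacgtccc
An E2F word stood in at least 1 listed window of 14 of the 38 genes (36.8%), beside 514 of 11340 tested genes with a window (4.53%). In Mcm3 the words began at positions 20 and 39, with the start site counted as position 1, and in Mcm7 at -165 and 17. In Mcm6 they began at -110, -106 and -47, and in Mcm5 at -153 and -149, and the first pair of each overlaps. None of these letters was in the window of Mcm2. The cAMP response element TGACGTCA stood in 1 of the 38 genes, Mcm5, at -99 (2.63%, against 3.44% of tested genes). The TEAD word ACATTCCA, the DNA site of the partners of TAZ, stood in 0 of the 38 genes (1.12% of tested genes). The words CCAAT and TTTGAA were searched as well. CCAAT stood in 23 of the 38 genes (60.5%, against 42.6% of tested genes) and TTTGAA in 5 (13.2%, against 14.7%). A match describes letters in a window and is not a measured binding site.

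Libraries held 45095331 to 61725339 counts. Levels are given as CPM, counts scaled to library size with TMM factors of 0.988 to 1.01, and changes are on the log2 scale, each ± its SE (n = 3 libraries in each group). Adjusted p-values come from edgeR's quasi-likelihood test with Benjamini-Hochberg adjustment over all 15932 genes, and a gene is called, and said to rise or fall, at an adjusted p under 0.05. The siRNA target Wwtr1 was at 107 to 127 CPM in the 6 TAZ siRNA libraries and at 161 to 186 CPM in the 6 controls. Its ratio to control was 0.645 with vehicle and 0.686 with dDAVP, a partial loss. Of 11 principal cell markers, Tfap2b was at 0 throughout, Elf5 and Aqp4 did not exceed 0.164 and 0.257 CPM, and 8 were tested. With dDAVP and control siRNA 4 of the 8 rose and 1 fell. Aqp2, the vasopressin-regulated water channel, did not exceed 0.343 CPM in any vehicle library, and under dDAVP it lay at 29.3 to 44.8 CPM with the control siRNA but at 9.1 to 13.7 CPM with the TAZ siRNA. The marker that fell was Scnn1a, a sodium channel subunit, from 129 ± 0.573 to 90 ± 1.16 CPM (SD, n = 3). The summed markers of intercalated and endothelial cells were at most 0.212 and 0.275 CPM, and those of fibroblasts and immune cells lay at 4.44 to 7.16 and 2.55 to 4.52 CPM. The 6 epithelial markers summed to 3330 to 3610 CPM in the vehicle libraries and to 3790 to 4270 CPM with dDAVP, and whether this bears on the replication genes was not tested. In bulk RNA, a smaller share of cells in S phase and less RNA in each such cell cannot be told apart.

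The replication genes were abundant in all 4 groups. Levels per transcript length, as TPM averaged over the 12 libraries, ran from 21.6 for Orc1, the largest subunit of the origin recognition complex, to 704 for Pcna, the sliding clamp. All 46 lay above the median of the tested genes and 22 above their 90th percentile, with Orc1 at percentile 50.7 and Pcna at 99.1. The MCM ring led the licensing genes, with Mcm7 at 639 TPM, Mcm6 at 449, Mcm4 at 405, Mcm3 at 338, Mcm5 at 330 and Mcm2 at 282. Over the libraries the neighbours Mcm6 (418 to 469) and Mcm4 (382 to 425) overlapped, as did Mcm3 (321 to 358) and Mcm5 (306 to 345), and the other neighbours within the ring did not. Outside licensing, Uhrf1 stood level with Mcm2 at 282 TPM. The loading and activation factors were lower per length, with Cdt1 at 148, Cdc45 at 99.2, Cdc6 at 62.1, Mcm10 at 45.2 and the 4 GINS subunits at 36.3 to 83.2 TPM.

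Subunits of 1 complex differed in level elsewhere as well. Rpa1, the large subunit of the single-strand binding trimer, was at 266 TPM, while Rpa2 and Rpa3 were at 71.2 and 70.5. Within the primer-making complex, the catalytic subunit Pola1 was at 61.5 and Prim2 at 80.5 TPM, below Pola2 at 175 and the primase catalytic subunit Prim1 at 264. The 5 RFC genes lay between 109 and 179 TPM. The ribonucleotide reductase subunits were close, with Rrm1 at 252 and Rrm2 at 266 TPM. Ccne1 (31.4 TPM) and Ccne2 (38.5 TPM), the E-type cyclins, and E2f1 (55.5 TPM) were among the lower genes. TPM depends on transcript length, so it can shift with how counts were split between transcript models. In 26 of the 46 genes 1 model held at least 90% of the counts in every library. Shares of the leading model ran from 2.88% to 80.4% for Pola2, 27.7% to 100% for Rpa1 and 45.3% to 97.8% for Mcm7. How far this moves the levels was not tested.

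**Figure D1:**
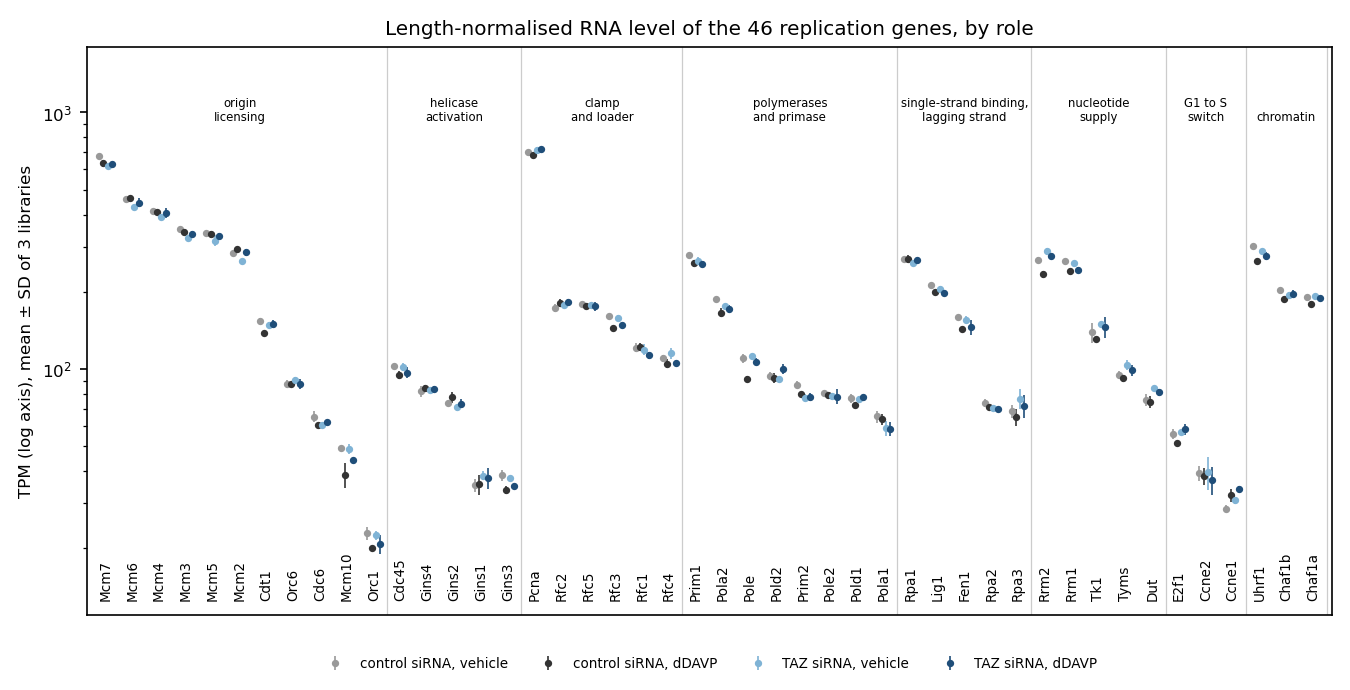
Length-normalised level (TPM, logarithmic axis) of the 46 genes, grouped by role and ordered by level within a role; points are group means of 3 libraries and bars are SD. Pcna (704 TPM over all libraries) lies highest, the 6 MCM ring genes (282 to 639 TPM) lead the licensing genes and Orc1 (21.6 TPM) lies lowest, and the 4 groups lie close together for each gene.

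Between libraries the genes varied little. The coefficient of variation within a group, averaged over the 4 groups, had a median of 2.83% and ran from 1.57% for Chaf1a, a subunit of the chromatin assembly factor, to 8.96% for Ccne2. The highest of the 12 libraries exceeded the lowest by 1.08-fold for Chaf1a and by 1.32-fold for Rpa3, with a median ratio of 1.15. Summed over the 46 genes, the level was 7808 ± 91.8 CPM with control siRNA and vehicle, 7718 ± 50.7 with control siRNA and dDAVP, 7510 ± 55.3 with TAZ siRNA and vehicle and 7672 ± 104 with TAZ siRNA and dDAVP (SD, n = 3). The 3 libraries with TAZ siRNA and vehicle (7454 to 7564 CPM) lay below the other 9, whose lowest was 7580. Abundant genes weigh most in this sum, and Mcm2 to Mcm7 alone had means of 2844 CPM with control siRNA and 2630 with TAZ siRNA in vehicle.

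**Figure D2:**
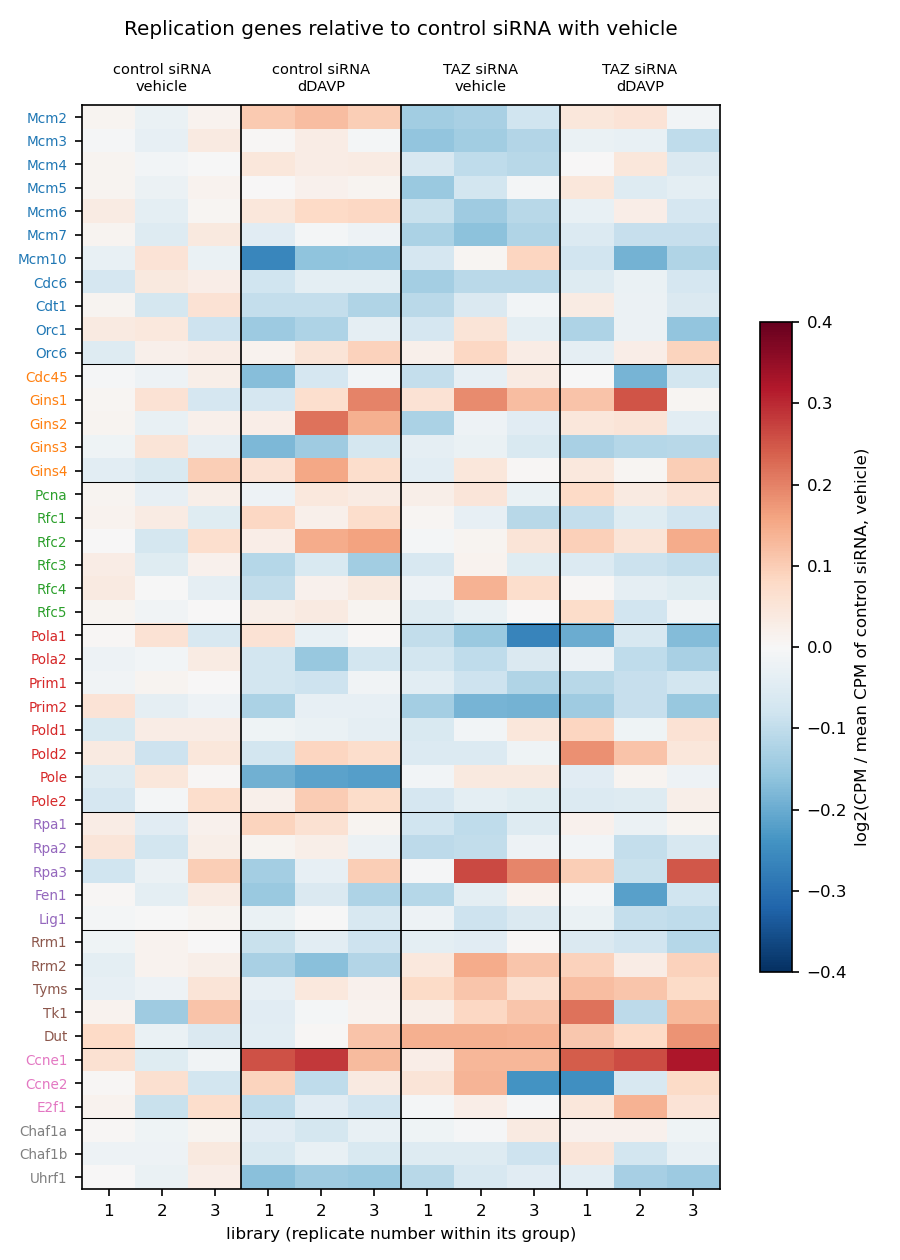
Log2 ratio of each gene's CPM to its mean in the control siRNA vehicle libraries, with genes in rows by role (the label colours and the lines separate the 8 roles) and the 12 libraries in columns; red is higher and blue is lower. The MCM ring rows are pale or red with control siRNA and dDAVP and mostly blue with TAZ siRNA and vehicle, and most cells are within 0.2 of 0.

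All changes of these genes were small. The greatest in any comparison of groups was 0.22, for Ccne1 with dDAVP (a ratio of 1.17). In each comparison between 4119 and 4759 tested genes had a larger estimate than the most changed replication gene, whether called or not. With the TAZ siRNA in vehicle, 4363 had a larger estimate, and 1004 of all tested genes were called. The median SE of a gene's change was 0.04 in each of the 4 comparisons. The widest 95% interval reached 0.34 from 0, so changes beyond that size lay outside every interval. Of the 46 genes, 31 were called in none of the 4 comparisons and 15 in at least 1. The matching share of all tested genes was not tabulated, so 15 cannot be read as many or few. Single comparisons called 6.3% to 19.2% of all tested genes.

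With control siRNA, dDAVP changed 7 of the 46 genes (15.2%), beside 19.2% of all tested genes. Ccne1 and Mcm2 rose (2 genes; 9.72% of all genes were called higher), and Pole, Mcm10, Uhrf1, Rrm2 and Pola2 fell (5 genes; 9.48% of all were called lower). The median over the 46 was -0.01 and that of all tested genes 0.00. With TAZ siRNA, dDAVP raised only Mcm2 and lowered none of the 46 (2.17% called, beside 10.8% of all genes, 6.38% higher and 4.41% lower), with a median of 0.02. This count was 2 without control siRNA vehicle replicate 2 (10.5% of all genes called) or control siRNA dDAVP replicate 1 or 3 (10.5% and 9.64%). It was also 2 without TAZ siRNA vehicle replicate 1 (9.38%), there 1 higher and 1 lower. Without TAZ siRNA dDAVP replicate 3 it was 4 (8.84%). The Wald test of DESeq2 called 7, of which 6 were higher and 1 lower (13% of all genes). Without a filter on low counts edgeR called 1 higher and 1 lower (6.74% of all).

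The TAZ siRNA, compared with control siRNA in vehicle, lowered 7 of the 46 genes and raised none (15.2% called). Of all tested genes, 6.3% were called, 3.19% higher and 3.11% lower. The 7 were 4 genes of the MCM ring (Mcm2, Mcm3, Mcm6 and Mcm7), the loader Cdc6 and 2 genes of the primer-making complex (Pola1 and Prim2). The median was -0.04, and 30 of the 46 had a change below 0. DESeq2 called 8 lower and 2 higher (8.96% of all). The count depended on single libraries. It was 1 without TAZ siRNA vehicle replicate 2, when 2.52% of all genes were called, and 2 without control siRNA vehicle replicate 3 (3.55% of all). It was 3 without TAZ siRNA vehicle replicate 3 (3.14% of all) and 3 without control siRNA vehicle replicate 1 (3.09% of all), of which 1 was higher.

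With dDAVP present, the TAZ siRNA changed 5 of the 46 genes (10.9%), beside 10.7% of all genes. Rrm2, Pole and E2f1 rose (5.77% of all genes were called higher), Pola1 and Rfc1 fell (4.97% lower), and the median was 0.00. The count was 2 without control siRNA dDAVP replicate 1 or 3 (7.58% and 6.44% of all genes called). It was also 2 without TAZ siRNA dDAVP replicate 1 or 3 (6.48% and 6.82%), and 3 without control siRNA dDAVP replicate 2 (6.85%). Each group enters 2 of these comparisons, so they are not independent: the control siRNA vehicle libraries are the reference of the first dDAVP response and of the first TAZ siRNA effect, and the control siRNA dDAVP libraries enter the first dDAVP response and are the reference of the second TAZ siRNA effect.

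Among the licensing genes, Mcm2, a subunit of the helicase ring, was called in 3 comparisons. It was at 356, 347 and 357 CPM with control siRNA and vehicle, 380, 385 and 378 with control siRNA and dDAVP, 321, 323 and 334 with TAZ siRNA and vehicle, and 365, 367 and 351 with TAZ siRNA and dDAVP. No group overlapped with its comparison group. dDAVP raised it by 0.11 ± 0.03 with control siRNA (adjusted p = 0.0139) and by 0.15 ± 0.03 with TAZ siRNA (adjusted p = 0.00263). The TAZ siRNA lowered it by 0.12 with vehicle (-0.12 ± 0.03, adjusted p = 0.0243), and with dDAVP the change was -0.08 ± 0.03 (adjusted p = 0.101). The first dDAVP call ended when replicate 2 of either control siRNA group was left out (adjusted p = 0.0702 for vehicle and 0.0711 for dDAVP), and that with TAZ siRNA held under each of 18 alternatives.

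Mcm3 and Mcm7, further ring subunits, were lower with the TAZ siRNA in vehicle as well. Mcm3 was at 393, 385 and 404 CPM with control siRNA and vehicle, 395, 402 and 392 with control siRNA and dDAVP, 353, 358 and 363 with TAZ siRNA and vehicle, and 387, 386 and 367 with TAZ siRNA and dDAVP. Mcm7 was at 614, 588 and 627, then 591, 606 and 601, then 558, 544 and 561, and then 587, 572 and 572 CPM in the same order. In both genes every TAZ siRNA vehicle library lay below every control siRNA vehicle library. Their changes were -0.14 ± 0.03 each (adjusted p = 0.0118 for Mcm3 and 0.0106 for Mcm7). Exons of Mcm7 overlap those of Ap4m1 (67.7 CPM) and Cops6 (88.6 CPM) on the other strand, and the sources used here do not say whether strand was used in counting.

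Mcm6 fell from 529 ± 13.1 to 488 ± 9.22 CPM (SD, n = 3), a change of -0.11 ± 0.03 (adjusted p = 0.0382). Mcm4 (-0.09 ± 0.03, adjusted p = 0.0762) and Mcm5 (-0.08 ± 0.04, adjusted p = 0.248), the remaining ring subunits, did not pass the test, and only for Mcm5 did the libraries overlap. The share of all tested genes without overlap in this comparison was not tabulated. Summed over the 6 ring genes, the level was 2844 ± 54.1 CPM with control siRNA and vehicle and 2630 ± 29.8 with TAZ siRNA and vehicle, and 2906 ± 19.6 and 2791 ± 62 with dDAVP (SD, n = 3). The TAZ siRNA vehicle libraries (2605 to 2663 CPM) were the lowest 3 of the 12 on this sum. With dDAVP the TAZ siRNA changed none of the 6 by the test, with changes of -0.02 to -0.09.

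**Figure D3:**
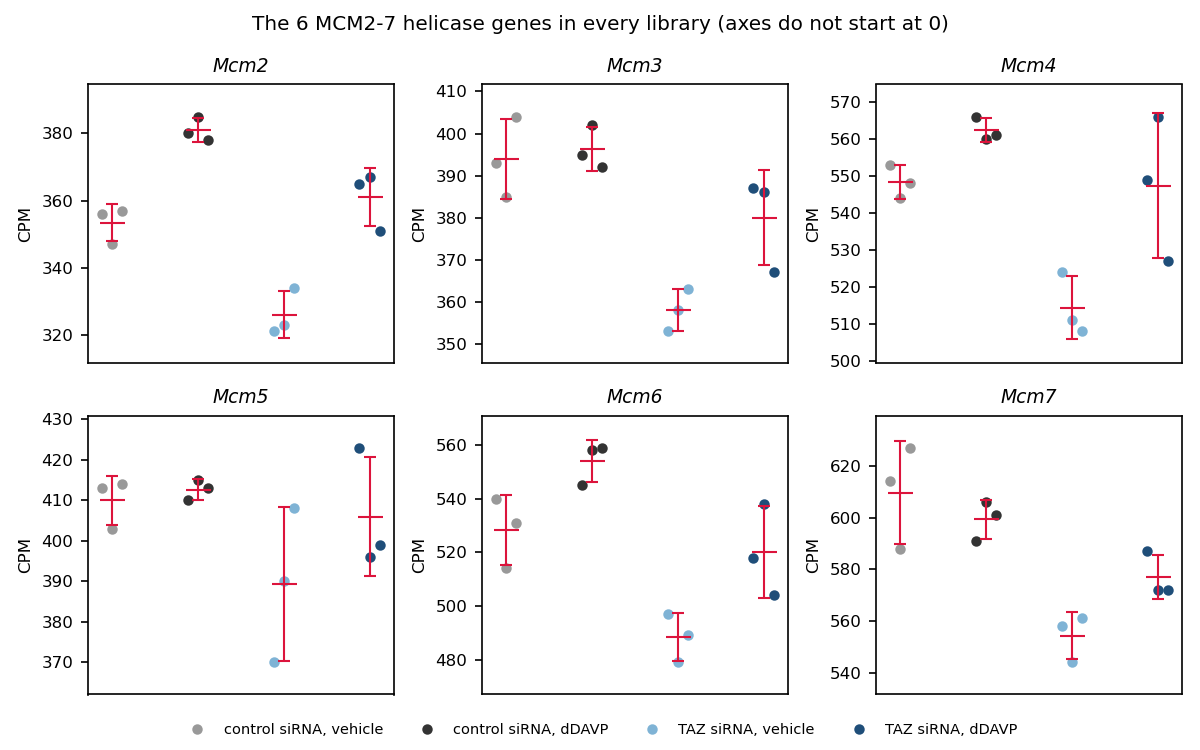
CPM of the 6 MCM ring genes in each library (points; axes do not start at 0), with group means and SD in red. In all but Mcm5 the 3 TAZ siRNA vehicle libraries lie below the 3 control siRNA vehicle libraries. The share of all tested genes that separate in this way was not tabulated. Mcm2 is at 321 to 334 against 347 to 357 CPM.

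Cdc6, the loader that works with the origin recognition complex, was at 106, 114 and 113 CPM with control siRNA and vehicle and at 101, 103 and 103 with TAZ siRNA and vehicle. With dDAVP it was at 105, 108 and 108 CPM with control siRNA and 107, 109 and 106 with TAZ siRNA. The vehicle groups did not overlap, and the change was -0.12 ± 0.03 (adjusted p = 0.041). The calls of the licensing genes in this comparison depended on single libraries and on settings. Mcm2, Mcm6 and Mcm7 each lost the call without control siRNA vehicle replicate 1 or 3 or TAZ siRNA vehicle replicate 2, with adjusted p-values of 0.0574 (Mcm7) to 0.178 (Mcm6). Mcm6 also lost it without TAZ siRNA vehicle replicate 3 (0.0825), and Mcm3 lost it without control siRNA vehicle replicate 3 (0.0623). Cdc6 lost it without control siRNA vehicle replicate 2 or 3, any TAZ siRNA vehicle library or TAZ siRNA dDAVP replicate 3 (0.0532 to 0.144). With all libraries kept, Mcm2 (0.0589), Mcm6 (0.0657) and Cdc6 (0.0899) lost the call with only the compared groups in the fit. Mcm6 (0.0709) and Cdc6 (0.0773) lost it without a filter on low counts, and Cdc6 with limma-voom (0.0511).

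Mcm10, which is not part of the ring and helps start its unwinding, fell with dDAVP. It was at 65, 69 and 65.1 CPM with control siRNA and vehicle and at 55.4, 59.3 and 59.5 with control siRNA and dDAVP. With TAZ siRNA it was at 63.4, 66.7 and 70.5 CPM with vehicle and 63, 58.2 and 61.1 with dDAVP. Neither pair of groups overlapped. It fell by 0.19 with control siRNA (-0.19 ± 0.05, adjusted p = 0.00689), a call that held under each of 18 alternatives, and its change with TAZ siRNA was -0.14 ± 0.05 (adjusted p = 0.0697). The difference between these responses was 0.06 (95% interval -0.08 to 0.19). The loader Cdt1 and the origin subunits Orc1 and Orc6 passed no test, with changes of -0.10 to 0.09.

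The 5 helicase activation genes, Cdc45 and Gins1 to Gins4, passed no test in any comparison. Their changes lay between -0.13 and 0.13 with dDAVP and control siRNA, between -0.08 and 0.08 with dDAVP and TAZ siRNA, and between -0.11 and 0.12 with the TAZ siRNA. The least precise of them was Gins1 (13.4 to 16.7 CPM), with an SE of 0.08.

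Of the clamp and its loader, only Rfc1, the large subunit of the loader, was called. It was at 229, 219 and 227 CPM with control siRNA and dDAVP and at 202, 209 and 205 with TAZ siRNA and dDAVP, with no overlap. With vehicle it was at 218, 221 and 209 CPM with control siRNA and 217, 211 and 200 with TAZ siRNA, which overlapped. Its change with dDAVP present was -0.13 ± 0.04 (adjusted p = 0.0232). The call ended without control siRNA dDAVP replicate 1 or 3 or TAZ siRNA dDAVP replicate 1 or 3, with a highest adjusted p of 0.092. Pcna was at 319 to 345 CPM in all libraries, with changes of 0.01 to 0.04, and a pseudogene listed beside it, Pcna-ps2, was at 16.7 CPM. Rfc2, Rfc3, Rfc4 and Rfc5 passed no test, with changes of -0.10 to 0.12.

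Pole, the catalytic subunit of the leading-strand polymerase epsilon, had the lowest adjusted p of the 46 genes with dDAVP. It was at 279, 298 and 290 CPM with control siRNA and vehicle and at 253, 249 and 248 with control siRNA and dDAVP. With TAZ siRNA it was at 287, 297 and 297 CPM with vehicle and 280, 291 and 285 with dDAVP. The control siRNA dDAVP libraries were the lowest 3 of the 12, and the other 3 groups overlapped. Pole fell by 0.21 with control siRNA (-0.21 ± 0.03, adjusted p = 0.000107), changed by -0.04 ± 0.03 with TAZ siRNA (adjusted p = 0.477) and was higher by 0.19 ± 0.03 with TAZ siRNA than with control siRNA in dDAVP (adjusted p = 0.000655). Both calls share the control siRNA dDAVP libraries, and both held under each of 18 alternatives. A gene annotated on the other strand, Gm15792, overlaps its exons. Its partner Pole2 changed by 0.07 ± 0.04, 0.02 ± 0.04, -0.05 ± 0.04 and -0.09 ± 0.04 in the 4 comparisons (dDAVP with control and with TAZ siRNA, TAZ siRNA with vehicle and with dDAVP) and passed no test.

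In the primer-making complex, the TAZ siRNA lowered Pola1 and Prim2. Pola1, the catalytic subunit of polymerase alpha, was at 130, 135 and 124 CPM with control siRNA and vehicle, 135, 127 and 130 with control siRNA and dDAVP, 121, 117 and 108 with TAZ siRNA and vehicle, and 113, 124 and 115 with TAZ siRNA and dDAVP. The TAZ siRNA groups lay below their control groups without overlap. The changes were -0.17 ± 0.05 with vehicle (adjusted p = 0.0382) and -0.15 ± 0.05 with dDAVP (adjusted p = 0.0399). Prim2, the regulatory subunit of primase, was at 65.5, 61.5 and 62.2 CPM with control siRNA and vehicle, 57.8, 61.6 and 61.7 with control siRNA and dDAVP, 57.4, 55.4 and 55.3 with TAZ siRNA and vehicle, and 57.2, 59.1 and 56.8 with TAZ siRNA and dDAVP. The vehicle groups did not overlap and the dDAVP groups did, with changes of -0.17 ± 0.04 (adjusted p = 0.0158) and -0.07 ± 0.04 (adjusted p = 0.349).

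These calls depended on single libraries and on settings. With vehicle, Pola1 lost its call without control siRNA vehicle replicate 1 or 2, control siRNA dDAVP replicate 3, TAZ siRNA vehicle replicate 2 or 3 or TAZ siRNA dDAVP replicate 3 (highest adjusted p 0.17), without a filter on low counts (0.0549) and with only the compared groups in the fit (0.0528). Prim2 lost its call without control siRNA vehicle replicate 1 or TAZ siRNA vehicle replicate 2 or 3 (highest 0.0971). With dDAVP, Pola1 lost its call without any of the 3 control siRNA dDAVP libraries, control siRNA vehicle replicate 1, TAZ siRNA vehicle replicate 2 or TAZ siRNA dDAVP replicate 1 or 3 (highest 0.154). Pola2, the B subunit of polymerase alpha, fell with dDAVP and control siRNA from 165 ± 3.08 to 154 ± 4.75 CPM (SD, n = 3; -0.10 ± 0.03, adjusted p = 0.0498). It lost the call without 7 of the 12 libraries (every control siRNA vehicle library, control siRNA dDAVP replicates 2 and 3, TAZ siRNA vehicle replicate 2 and TAZ siRNA dDAVP replicate 3; highest adjusted p 0.191), and with all 12 kept the call ended with DESeq2 size factors in edgeR (0.0515), limma-voom (0.0522) and no filter on low counts (0.0797). Prim1, Pold1 and Pold2 passed no test. Among these, Pold2, a subunit of polymerase delta, had the greatest change, 0.16 ± 0.05 with dDAVP and TAZ siRNA (adjusted p = 0.0508).

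The 5 genes of single-strand binding and lagging-strand work passed no test in any comparison. Rpa1 changed by 0.05 ± 0.03 and 0.08 ± 0.03 with dDAVP, and by -0.08 ± 0.03 and -0.05 ± 0.03 with the TAZ siRNA. Fen1, the flap nuclease, and Lig1, the ligase that joins Okazaki fragments, changed by -0.11 to 0.01. Rpa3, at 14.7 to 19.4 CPM, had an SE of 0.09 and is the gene whose interval reached 0.34 in the TAZ siRNA comparison with vehicle.

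Of the nucleotide supply genes, Rrm2, the small subunit of ribonucleotide reductase that is made in S phase, was called. It was at 209, 217 and 218 CPM with control siRNA and vehicle and at 196, 191 and 198 with control siRNA and dDAVP. With TAZ siRNA it was at 221, 238 and 232 CPM with vehicle and 229, 219 and 229 with dDAVP. Every TAZ siRNA library lay above every control library. It fell by 0.14 with dDAVP and control siRNA (-0.14 ± 0.03, adjusted p = 0.00824) and was higher by 0.21 ± 0.03 with TAZ siRNA in dDAVP (adjusted p = 0.000561), and both calls held under each of 18 alternatives. With vehicle the TAZ siRNA change was 0.10 ± 0.03 (adjusted p = 0.0812). The large subunit Rrm1 passed no test, with changes of -0.07 to -0.01. Tyms, thymidylate synthase, and Dut, which removes dUTP, were at changes of 0.08 ± 0.03 and 0.14 ± 0.04 with the TAZ siRNA in vehicle (adjusted p = 0.171 and 0.0704), and of 0.10 ± 0.03 and 0.10 ± 0.04 in dDAVP (adjusted p = 0.079 and 0.19). The salvage enzyme Tk1 was less precise, with an SE of 0.07 and changes of -0.01 to 0.10.

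Ccne1, cyclin E1, which with its kinase drives entry into S phase, was at 21.6, 20 and 20.5 CPM with control siRNA and vehicle and at 24.7, 25.2 and 22.6 with control siRNA and dDAVP. With TAZ siRNA it was at 21.1, 22.7 and 22.7 CPM with vehicle and 24.5, 24.8 and 25.9 with dDAVP. The dDAVP libraries lay above the vehicle libraries with either siRNA. The rise was 0.22 ± 0.06 with control siRNA (adjusted p = 0.00954), and the call ended without control siRNA dDAVP replicate 2 (adjusted p = 0.0672). With TAZ siRNA the change was 0.18 ± 0.06 (adjusted p = 0.0502), and the difference between the responses was -0.04 (95% interval -0.21 to 0.12). Ccne2, cyclin E2, passed no test, with an SE of 0.09 and changes of -0.08 to 0.01.

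E2f1, the activating E2F factor, was at 57.1, 53.2 and 59.3 CPM with control siRNA and vehicle and at 52.7, 54.8 and 53.6 with control siRNA and dDAVP. With TAZ siRNA it was at 56.2, 57.6 and 56.4 CPM with vehicle and 58.4, 62.2 and 58.7 with dDAVP. The dDAVP groups did not overlap, and E2f1 was higher by 0.15 ± 0.04 with TAZ siRNA (adjusted p = 0.03). The call ended without any 1 of the 6 dDAVP libraries, with a highest adjusted p of 0.112, and without a filter on low counts (0.0694).

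Uhrf1, which brings the maintenance methyltransferase to newly copied DNA, was at 396, 389 and 403 CPM with control siRNA and vehicle and at 353, 359 and 357 with control siRNA and dDAVP. With TAZ siRNA it was at 367, 379 and 384 CPM with vehicle and 385, 361 and 358 with dDAVP. The control siRNA groups did not overlap and the TAZ siRNA groups did. The fall with control siRNA was -0.15 ± 0.03 (adjusted p = 0.00263) and held under each of 18 alternatives, and the change with TAZ siRNA was -0.03 ± 0.03 (adjusted p = 0.61). Chaf1a and Chaf1b, which place histones on new DNA, passed no test, with changes of -0.06 to 0.05.

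**Figure D4:**
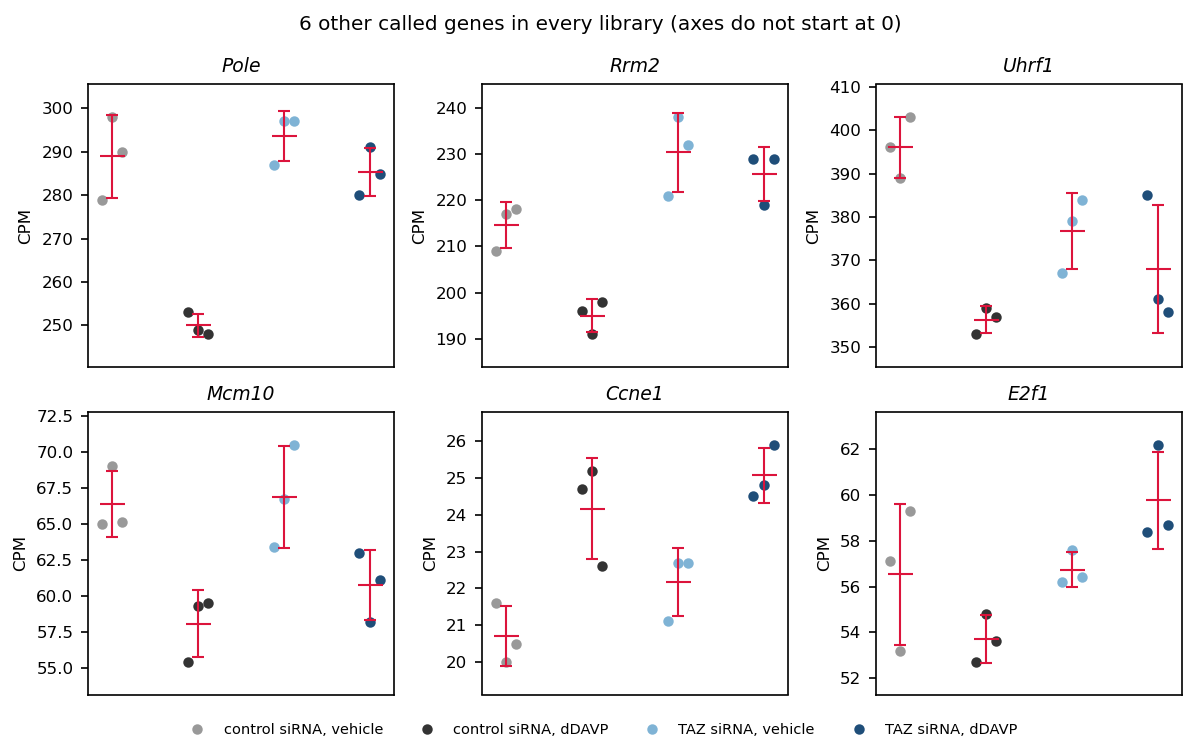
CPM of 6 called genes outside the MCM ring in each library (points; axes do not start at 0), with group means and SD in red. For Pole the 3 control siRNA dDAVP libraries (248 to 253 CPM) lie below the other 9, and for Rrm2 all TAZ siRNA libraries (219 to 238 CPM) lie above all control libraries.

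Whether the TAZ siRNA altered the dDAVP response was tested directly, as the response with TAZ siRNA minus that with control siRNA. edgeR's quasi-likelihood test called 0 of the 46 genes and 5 of the 15932 (0.0314%). At an unadjusted p under 0.05 there were 6 of the 46 and 1295 of all genes (8.13%). limma-voom called 0 of the 46 and the Wald test of DESeq2 called 1, Pole. The estimated difference of Pole was 0.17 ± 0.04 (95% interval 0.07 to 0.26), with an adjusted p of 0.247 by edgeR and 0.0402 by DESeq2. The others at an unadjusted p under 0.05 were Cdt1 (0.15 ± 0.05), E2f1 (0.15 ± 0.06), Cdc6 (0.12 ± 0.05), Uhrf1 (0.12 ± 0.05) and Rrm2 (0.11 ± 0.05), whose adjusted p-values lay between 0.453 and 0.585. A fall of Pole, Rrm2 or Uhrf1 that passed the test with control siRNA and not with TAZ siRNA was therefore not shown by edgeR to differ between the siRNAs.

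Other genes of replication and of the cell cycle, from 5 lists that share no gene with the 46, give the setting. Their counts stand against the share of all tested genes called in the same comparison, here 9.72% higher and 9.48% lower. Fits without 1 library called other shares of all genes, given in the last section. With dDAVP and control siRNA, 7 of 36 other replication factors fell and 1 rose (median -0.05), among them Recql4, a helicase (-0.28 ± 0.05), and Ticrr, an origin firing factor (-0.21 ± 0.03), and 4 fell without control siRNA vehicle replicate 2 or control siRNA dDAVP replicate 2 or 3. Of 18 other nucleotide genes 3 rose and 2 fell (median 0.05). Samhd1, a dNTP hydrolase, fell (-0.22 ± 0.03), and Mthfd2 rose from 43.1 ± 2.79 to 51.6 ± 1.22 CPM (SD, n = 3). Without control siRNA vehicle replicate 2 or control siRNA dDAVP replicate 1, 1 rose and 2 fell. Of 31 tested G1 to S control genes 11 fell and 3 rose (median -0.07), with Ccnd1, cyclin D1, at -0.54 ± 0.12 and E2f2 at 0.39 ± 0.07. Of 24 genes of S phase DNA repair and checkpoint 13 fell and 1 rose (median -0.14). The falls included Fancd2 (-0.27 ± 0.05) and Brca1 (-0.25 ± 0.04), and Fanca rose from 178 ± 4.09 to 221 ± 10.8 CPM (SD, n = 3). Without control siRNA vehicle replicate 2, 8 of the 24 fell. Of 30 G2 and M phase genes 18 fell and none rose (median -0.18), with the spindle kinase Bub1 at -0.32 ± 0.05 and the mitotic factor Foxm1 at -0.30 ± 0.04.

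With dDAVP and TAZ siRNA (6.38% of all tested genes higher and 4.41% lower), 18 of the 30 G2 and M phase genes fell and none rose (median -0.15), with Cenpf, a kinetochore protein, at -0.35 ± 0.07. Without TAZ siRNA vehicle replicate 2, 10 fell, and without TAZ siRNA dDAVP replicate 2, 11 fell. Of the other replication factors 3 fell, among them Dbf4, the activator of the origin firing kinase (-0.20 ± 0.03), and 1 fell without TAZ siRNA vehicle replicate 1 or 2 or TAZ siRNA dDAVP replicate 1 or 2. Of the nucleotide genes 3 rose and 1 fell. Their number of calls was 2 without TAZ siRNA vehicle replicate 2 or TAZ siRNA dDAVP replicate 1, and 7 without TAZ siRNA vehicle replicate 3. Of the G1 to S control genes 4 rose and 4 fell, Ccnd1 by 0.71 (-0.71 ± 0.12), from 57.9 ± 10.7 to 35.3 ± 3.56 CPM (SD, n = 3). Their number of calls was 5 without control siRNA vehicle replicate 1, TAZ siRNA vehicle replicate 1 or TAZ siRNA dDAVP replicate 3, and 3 without TAZ siRNA vehicle replicate 2 or TAZ siRNA dDAVP replicate 1. Of the repair genes Fanca rose and Brca1 fell, and their number of calls was 1 without TAZ siRNA vehicle replicate 1 or 2 or TAZ siRNA dDAVP replicate 1, and 5 without TAZ siRNA vehicle replicate 3. The call of Brca1 ended without TAZ siRNA vehicle replicate 1 or 2 or TAZ siRNA dDAVP replicate 1 or 3 (highest adjusted p 0.0772). In the dDAVP comparisons the medians of the 46 genes (-0.01 and 0.02) lay nearer to 0 than those of the G2 and M phase genes (-0.18 and -0.15), a description with no test between lists.

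With vehicle, the TAZ siRNA was set against 3.19% of all tested genes higher and 3.11% lower. edgeR called none of the 36 other replication factors and DESeq2 called 1, and without TAZ siRNA vehicle replicate 1 edgeR called 2. Of the 31 tested G1 to S control genes 4 fell and 3 rose. Mycn, a Myc family factor, fell in each of 18 alternatives (-0.26 ± 0.05). Ccnd1 rose from 40.9 ± 3.02 to 57.9 ± 10.7 CPM (SD, n = 3), a call that ended in 5 of 18 alternatives. The number of calls in this list was 4 without control siRNA vehicle replicate 1 or 3 or TAZ siRNA vehicle replicate 3, and 2 without TAZ siRNA vehicle replicate 2. The 18 nucleotide, 24 repair and 30 G2 and M phase genes held 2, 1 and 1 calls, and each of these counts fell to 0 without control siRNA vehicle replicate 1 or TAZ siRNA vehicle replicate 2. The repair count was 0 also without any other library of the vehicle groups except TAZ siRNA vehicle replicate 1, the G2 and M phase count was 0 also without TAZ siRNA vehicle replicate 3, and the nucleotide count was 6 without TAZ siRNA vehicle replicate 1.

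With dDAVP present (5.77% of all tested genes higher and 4.97% lower), the TAZ siRNA raised 3 other replication factors and lowered 1, with Recql4 at 0.26 ± 0.05 and Ticrr at 0.16 ± 0.03, and the number of calls was 2 without TAZ siRNA dDAVP replicate 1 or 3. Of the G2 and M phase genes 4 rose and 1 fell, with Foxm1 at 0.28 ± 0.04. Their number of calls was 2 without control siRNA dDAVP replicate 1 or TAZ siRNA dDAVP replicate 1, and 3 without control siRNA dDAVP replicate 3. Of the repair genes 4 rose and 1 fell, with 2 calls without control siRNA dDAVP replicate 1 or TAZ siRNA dDAVP replicate 3 and 3 without TAZ siRNA dDAVP replicate 1. Of the nucleotide genes 2 rose and 1 fell, with no call left without control siRNA dDAVP replicate 2 or TAZ siRNA dDAVP replicate 3, and 1 without control siRNA vehicle replicate 1, control siRNA dDAVP replicate 3 or TAZ siRNA dDAVP replicate 1. Of the G1 to S control genes 4 rose and 2 fell, and 3 calls were left without control siRNA dDAVP replicate 2. In the difference of the dDAVP responses edgeR called none of the 5 lists' genes.

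**Figure D5:**
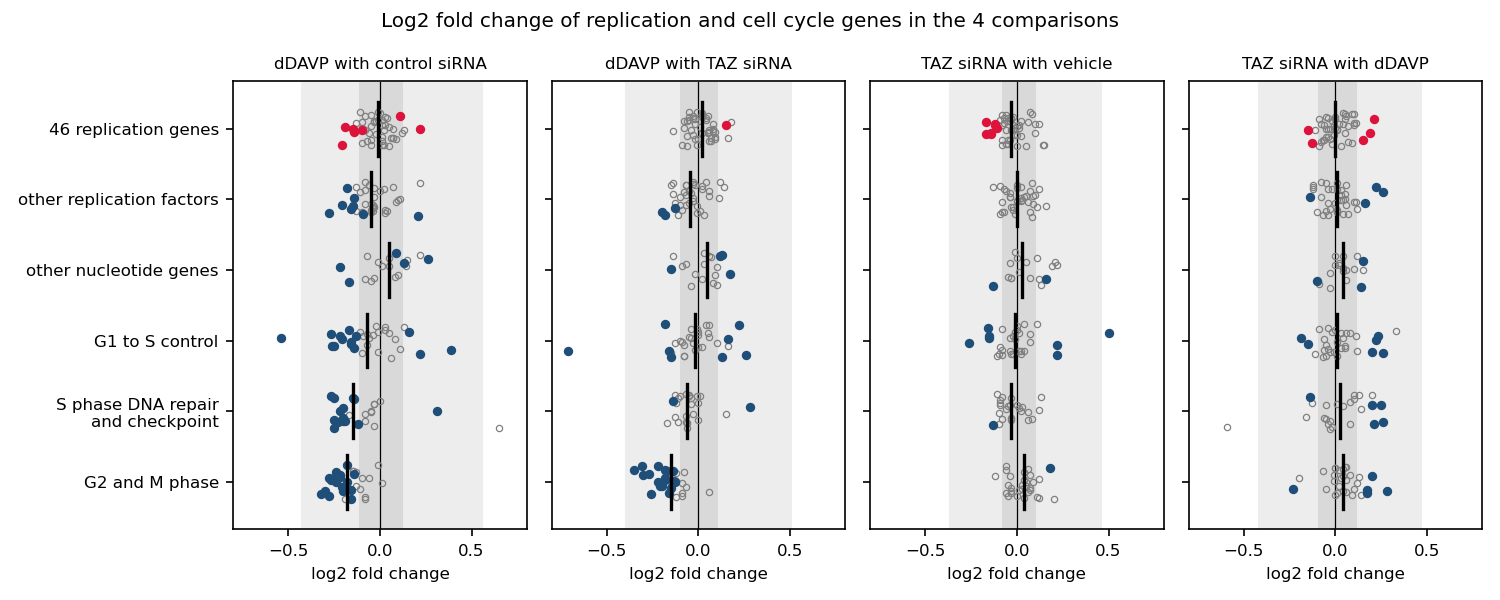
Log2 fold change of each gene of the 46 and of the 5 other lists in the 4 comparisons; filled points are called, open points are not, black bars are list medians, and the dark and light bands hold the middle 50% and 90% of all tested genes. The G2 and M phase genes lie left of 0 in both dDAVP comparisons (medians -0.18 and -0.15), while the 46 genes are centred near 0 (medians -0.01 and 0.02).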

How the data were processed

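RNA was sequenced from 12 libraries, 3 in each of 4 groups, assigned by the labels. The authors' deposited gene table gives estimated counts written as whole numbers and TPM, per the file headers. A transcript table gives estimated counts, FPKM and transcript length, per the file headers, and served to see how the counts were made: of 157342 transcript counts of 2 to 20, 85.6% were not whole (tolerance 0.05) when rebuilt from the deposited FPKM and length, and 12 of 549324 gene values differed from their summed transcript counts. Bowtie 0.12.2, mm8 and mm10 are listed, with no roles, per the submitters' processing notes. The counting tool, its use of strand and the annotation are not given in the sources used here, and the labels' protocols name both an unstranded and a stranded TruSeq kit. The files hold 24 further per-sample columns that were not used.

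Deposited counts were scaled by TMM and tested with edgeR 4.0.16 (R 4.3.3; robust quasi-likelihood test, 1 mean per group over all 12 libraries, so that the groups share the estimate of spread; filterByExpr with a minimum count of 10; Benjamini-Hochberg adjustment over 15932 genes, threshold 0.05), a procedure tested on simulated data. The biological coefficient of variation was 5.11%. Totals of 45095331 to 61725339 counts make counting error small for the more abundant of these genes. It weighs more for the lowest by CPM, such as Gins1, Rpa3 and Ccne1, at 13.4 to 25.9 CPM. The 5 contrasts were the dDAVP response with each siRNA, the TAZ siRNA effect in vehicle and in dDAVP, and the difference of the dDAVP responses. SE was derived from the fold change and the F statistic, and TPM was used only to compare levels between genes. Libraries of a group differed by more than counting error (chi-square over its degrees of freedom, 4.25 to 13.5). Same-numbered libraries deviated together little (correlations of -0.0638 to 0.204, 3 of 12 pairs over 0.1), so they are not treated as pairs. The highest correlations, 0.204 for replicate 3 and 0.133 for replicate 1, were both for the TAZ siRNA with vehicle. Alternatives were DESeq2 1.42.0 (its size factors in edgeR, and its Wald test), limma 3.58.1 (voom), no filter on low counts, a replicate block, the compared groups only and leaving out each library.

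The 46 genes, the 5 other lists and the markers were chosen with earlier results of these data known. All 46 genes are reported; values in every library are given for up to 6 called genes per comparison, those with the largest changes, and up to 3 called genes of each other list may be named, with Wwtr1 to check the knockdown. Promoters are RefSeq windows on GRCm38.p6, and 44 of the 46 gene spans in the files equal the RefSeq GRCm38 annotation. Exons of 14 of the 46 genes overlap a gene on the other strand. That gene was the more abundant for Rfc4 (at most 54.3 CPM, Eif4a2 at 488), Gins2 (at most 32.9, Gse1 at 241) and Orc6 (at most 56.8, Vps35 at 253). For the others it was lower on average or had no listed level. Whether its reads entered the counts was not tested.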

Additional observations from a re-analysis of the deposited data

How the results depend on the processing

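The 20 calls of the 46 genes kept their direction under each of 18 alternatives, and the direction of uncalled changes was not tabulated. The median change of the 46 genes ran from -0.02 to -0.01 with dDAVP and control siRNA, 0.00 to 0.02 with dDAVP and TAZ siRNA, -0.05 to -0.03 for the TAZ siRNA with vehicle, -0.02 to 0.00 for the TAZ siRNA with dDAVP and 0.01 to 0.04 for the difference. The number of the 46 genes called moved more. The Wald test of DESeq2 called 11 with dDAVP and control siRNA (20.6% of all genes), 7 with dDAVP and TAZ siRNA (13%), 10 for the TAZ siRNA with vehicle (8.96%), 7 for it with dDAVP (13.1%) and 1 for the difference of the dDAVP responses, where edgeR called 7, 1, 7, 5 and 0. Without a filter on low counts, 2 were called with dDAVP and TAZ siRNA (6.74% of all genes) and 4 for the TAZ siRNA with vehicle (3.58%). With only the compared groups in the fit, 3 were called for the latter (5.06%). Leaving out 1 library gave 5 to 10 with dDAVP and control siRNA (12.9% to 20% of all genes). It gave 1 to 4 with dDAVP and TAZ siRNA (6.88% to 10.8%). The TAZ siRNA with vehicle had 1 to 9 (2.52% to 8.82%) and with dDAVP 2 to 6 (6.44% to 11.8%), and the difference had 0. With the replicate block, the counts were 8, 1, 6, 5 and 0 in the same order. In the 4 comparisons of groups this fit called 18.7%, 10.4%, 6.08% and 10.6% of all genes. The replicate numbers are not known to pair libraries. The block ended the call of Mcm6 for the TAZ siRNA with vehicle (adjusted p = 0.0508), where it also called 1 of the other replication factors and 2 repair genes, against 0 and 1 without it. The cause of these moves was not tested, beyond the smaller number of libraries or genes that an alternative uses. With 3 libraries per group and a median SE of 0.04, changes of the size seen here lie close to the limit of the test, and the call of a gene can rest on 1 library.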
